A study of Mus musculus with 4 samples.

Results

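Tetraspanins are small proteins that cross the membrane 4 times and gather integrins, immunoglobulin-family proteins and proteases into patches of the plasma and endosomal membrane. In leukocytes they are known for their part in adhesion, cell fusion, receptor signalling and vesicle formation. Cd9 and Cd81 pair with the same immunoglobulin-family partner, Cd63 sits in late endosomes and in the granules of granulocytes, Cd37 and Cd53 are largely restricted to leukocytes, Cd82 is known as a suppressor of metastasis, and Cd151 binds laminin-binding integrins.

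The 7 tetraspanin genes described here, Cd9, Cd37, Cd53, Cd63, Cd81, Cd82 and Cd151, were taken by name from the 16308 genes of 4 single-cell libraries, and all 7 were present. They were chosen by a rule that followed measured values of these libraries: Cd9 and Cd81 were already known to lie among the genes furthest above WT in monocyte/Mφ-like cells of CCR2 KO mice at 24 h. The ratios of that comparison are therefore a description and support nothing, and the members that follow it in other cells and times came from the same libraries.

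The cells were CD45+ leukocytes sorted from the small-intestinal muscularis of 12-week-old mice, pooled within each library, after muscularis inflammation had been induced by surgical manipulation. There was 1 library each of C57BL/6J WT mice at 24 h, Ccr2-/- mice (B6.129S4-Ccr2tm1Ifc/J, called CCR2 KO) at 24 h, WT mice at 72 h and CCR2 KO mice at 72 h post-injury. CCR2 is the chemokine receptor that monocytes need to leave the bone marrow, and the strain lacks it in every cell and at both times. With 1 library per group no test between groups was possible, and every interval below is a 95% interval of counting error only, which leaves out the spread between mice and between libraries.

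The 4 libraries held 1674, 1768, 1315 and 1042 cells in the order given above, with 21206308, 10414524, 16600493 and 9620609 unique molecular identifiers (UMIs, counted transcripts). Over all cells, median UMIs per cell were 12859 and 12427 in WT against 3284 and 5016 in CCR2 KO. These medians take all cell classes together, and depth within classes is given below. The pan-leukocyte gene Ptprc, which encodes CD45, had a UMI in 92.1% to 96.5% of the cells of each library. Ccr2 was read at 720 and 923 counts per 1000000 UMIs (CPM) over all cells of the WT libraries and at 47.4 and 54.4 CPM in CCR2 KO. Within monocyte/Mφ-like cells it was 758 and 1063 CPM in WT against 95.2 and 83.2 CPM in CCR2 KO. The labels and the targeted gene thus went the same way, although 43.1% and 21.5% of the CCR2 KO monocyte/Mφ-like cells still had a Ccr2 UMI. Libraries shared at most 1 cell barcode with one another.

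Cells were grouped by clusters named from fixed marker genes, with the tetraspanins kept out of the clustering. Monocyte/Mφ-like cells numbered 1284 in WT and 218 in CCR2 KO at 24 h, and 880 and 149 at 72 h. Neutrophil-like cells went the other way, with 297 in WT and 1282 in CCR2 KO at 24 h, and 86 and 214 at 72 h. Dendritic cell (DC)-like cells numbered 55, 62, 140 and 132 in library order, which from here on runs WT then CCR2 KO at 24 h, followed by the same pair at 72 h. A cluster of Siglecf-high granulocytes held 10, 55, 106 and 373 cells in library order and was kept apart from the neutrophils. Median UMIs per cell in library order were 14589, 15803, 13974 and 12695 for the monocyte/Mφ-like class. Neutrophil-like cells had 2085, 2983.5, 2859.5 and 4844, and DC-like cells had 14777, 20917.5, 17274.5 and 26817.5. Among these classes, CCR2 KO was shallower than WT only for the monocyte/Mφ-like class at 72 h. T cell-like, NK cell-like and B lineage-like cells numbered at most 77 in any library, and a class was read only in libraries with at least 20 of its cells. Levels are summed UMIs of a class in a library as CPM. The libraries capture the 3' end of transcripts, so a CPM value counts molecules and needs no division by gene length.

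**Figure D1:**
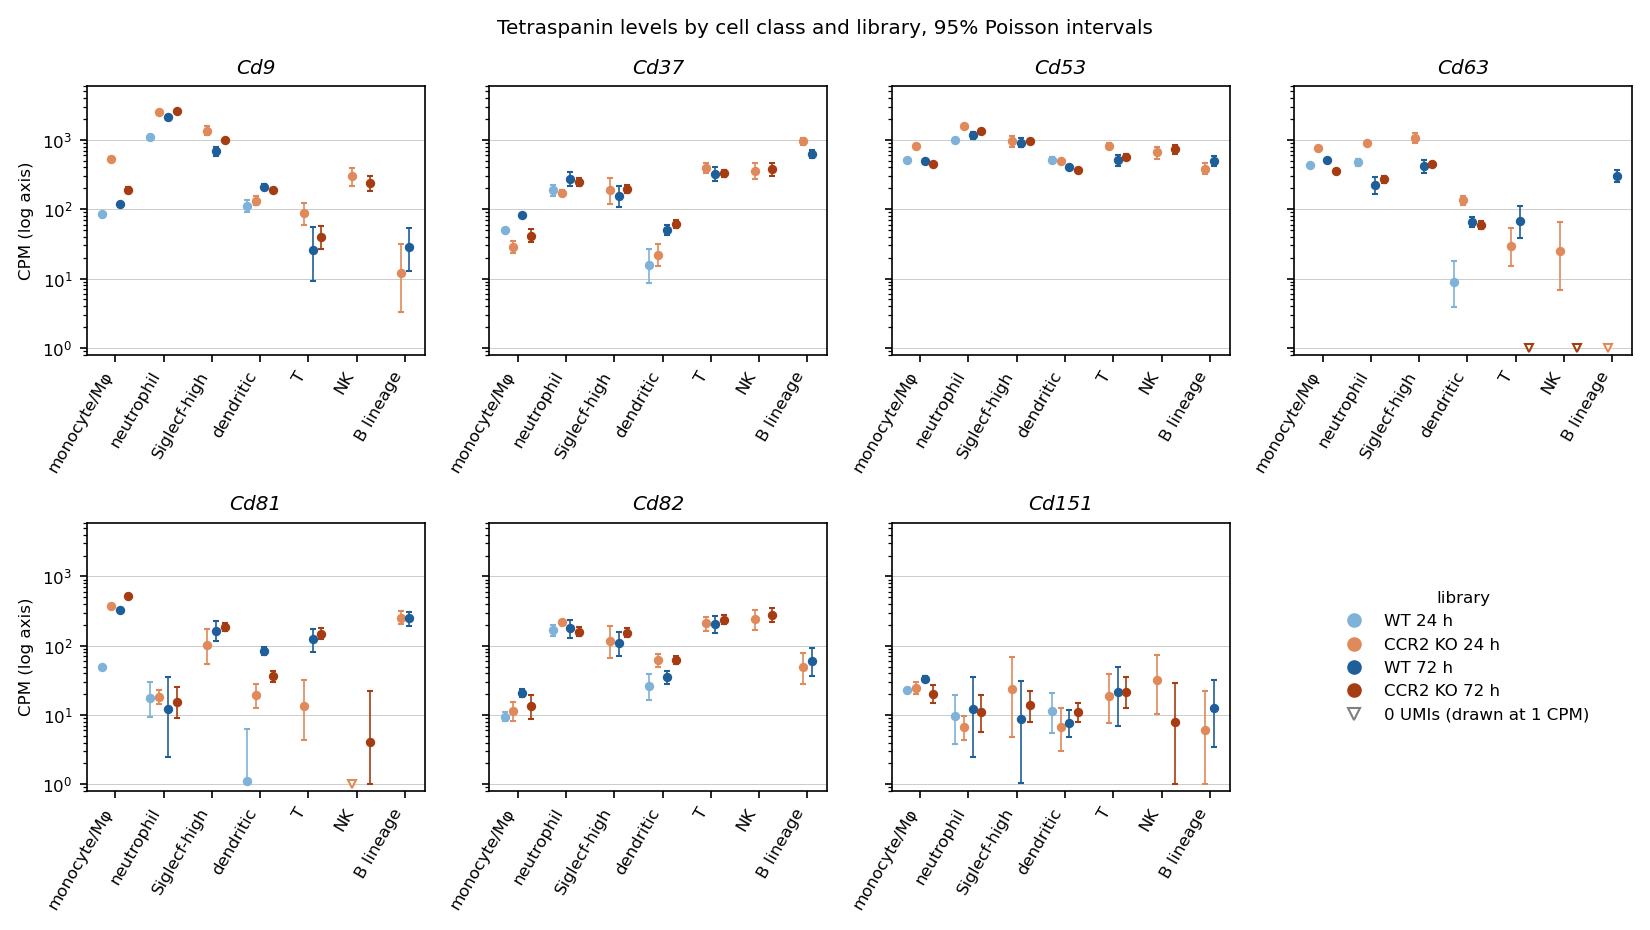
Level of each tetraspanin in CPM (log axis) in each leukocyte class, with points for the 4 libraries and bars for the exact 95% Poisson interval; triangles mark 0 UMIs. Cd9 was highest in neutrophil-like cells, Cd37 in B lineage-like cells and Cd82 in NK cell-like cells, and in monocyte/Mφ-like cells Cd81 had its lowest level, 48.7 CPM, in WT at 24 h.

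Tetraspanin levels differed between leukocyte classes, with overlap between several of them. Cd9 was the tetraspanin of granulocytes in these libraries, at 1105 to 2648 CPM in neutrophil-like cells and 684 to 1360 CPM in Siglecf-high granulocytes. The 2 ranges overlapped, and both lay above every other class. NK cell-like cells followed with 238 and 298 CPM and monocyte/Mφ-like cells with 84.3 to 535 CPM. DC-like cells had 112 to 212 CPM. T cell-like cells, at 25.5 to 87.1 CPM, and B lineage-like cells, at 12.1 and 28.5 CPM, stood at the bottom, with overlapping ranges.

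Cd53, the pan-leukocyte member, was high in every class. Its mean over libraries ran from 440 CPM in B lineage-like cells to 1263 CPM in neutrophil-like cells. Neutrophil-like cells (986 to 1562 CPM) lay just above Siglecf-high granulocytes (918 to 959 CPM). Below them, NK cell-like (659 and 729 CPM), T cell-like (505 to 819 CPM) and monocyte/Mφ-like cells (454 to 813 CPM) overlapped. DC-like cells, at 370 to 515 CPM, overlapped with B lineage-like cells at 386 and 494 CPM.

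Cd37, which is known from mature B cells, was highest in B lineage-like cells at 950 CPM in CCR2 KO at 24 h and 624 CPM in WT at 72 h. NK cell-like cells (361 and 374 CPM) and T cell-like cells (327 to 397 CPM) overlapped with each other and lay above neutrophil-like cells (174 to 274 CPM). Monocyte/Mφ-like and DC-like cells were lowest, at 28.9 to 81.2 CPM and 15.8 to 60.8 CPM. Cd82 was highest in NK cell-like cells (241 and 282 CPM), with T cell-like cells (204 to 237 CPM) and neutrophil-like cells (160 to 221 CPM) next and overlapping in part. B lineage-like cells had only 48.6 and 60.2 CPM of Cd82, and monocyte/Mφ-like cells 9.50 to 20.9 CPM, the lowest of the classes.

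Cd81, which is known from the surface of B cells, was steady in B lineage-like cells at 255 and 247 CPM. Its highest levels were nevertheless in monocyte/Mφ-like cells, where the 4 libraries ranged from 48.7 to 527 CPM and so overlapped with most other classes. Neutrophil-like cells had 12.1 to 18.2 CPM. NK cell-like cells had no UMI of Cd81 in CCR2 KO at 24 h, which allows up to 23.4 CPM by the exact Poisson limit, and 4.03 CPM at 72 h. T cell-like cells of CCR2 KO mice had 13.6 CPM from 5 UMIs at 24 h and 150 CPM from 110 UMIs at 72 h, a log2 ratio of 3.46 (2.20 to 5.11), and T cell-like cells of WT mice at 72 h had 123 CPM. Both 72 h libraries were thus high and the single readable 24 h library low.

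Cd63 marked myeloid cells other than DCs. Siglecf-high granulocytes (416 to 1069 CPM), monocyte/Mφ-like cells (359 to 752 CPM) and neutrophil-like cells (222 to 901 CPM) overlapped. DC-like cells had 9.03 to 136 CPM and T cell-like cells 0 to 67.9 CPM. NK cell-like cells held 4 UMIs in 1 library and 0 in the other. B lineage-like cells differed between libraries, with 0 UMIs in 36 cells of CCR2 KO at 24 h, an upper limit of 11.2 CPM, and 301 CPM in 20 cells of WT at 72 h. Cd151 was the least abundant member in most classes. Its mean was highest in monocyte/Mφ-like cells at 25.4 CPM and lowest in DC-like cells at 9.16 CPM, and the ranges of neighbouring classes overlapped.

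The start regions of Cd9, Cd81 and Cd53 are shown because Cd9 and Cd81 were the members furthest apart between libraries in monocyte/Mφ-like cells and Cd53 was high in every class. On GRCm38, in the GENCODE annotation, Cd9 lies at chr6:125460266-125494791, Cd37 at chr7:45233632-45239115, Cd53 at chr3:106759921-106790149 and Cd82 at chr2:93419111-93463140, all on the minus strand. Cd63 lies at chr10:128900989-128912822, Cd81 at chr7:143052739-143067934 and Cd151 at chr7:141467392-141471473, on the plus strand. RefSeq start windows on GRCm38.p6 were found for all 7 members. Each run gives the 100 bases upstream of the annotated start, read 5′ to 3′ on the strand of the gene, and capitals mark GGGCGG, the GC box, found on either strand.

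Cd9, chr6:125494792-125494891, minus strand: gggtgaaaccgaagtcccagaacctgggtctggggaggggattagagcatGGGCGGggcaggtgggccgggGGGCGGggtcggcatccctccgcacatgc

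Cd81, chr7:143052639-143052738, plus strand: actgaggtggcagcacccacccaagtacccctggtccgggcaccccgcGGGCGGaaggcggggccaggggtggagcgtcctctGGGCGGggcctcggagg

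Cd53, chr3:106790150-106790249, minus strand: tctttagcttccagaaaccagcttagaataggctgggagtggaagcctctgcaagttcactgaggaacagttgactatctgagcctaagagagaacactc

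Over the 250 bases before the RefSeq start, Cd9 held 2 GC boxes and Cd81 held 3, and the windows were 61.6% and 65.6% G or C. The Cd53 window held none and was 45.2% G or C. Of all 32851 RefSeq windows of that length, 32.7% held a GC box, so its presence in both is common. TATAAA, searched in the same way and present in 12.4% of all windows, was in no window of the 7 members. These matches describe the letters only.

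The first question was how tetraspanin levels in the monocyte and macrophage compartment differed between WT and CCR2 KO mice in the acute phase. In monocyte/Mφ-like cells at 24 h, Cd9 and Cd81 were several-fold higher in CCR2 KO and the other 5 members differed by less than 2-fold. As set out above, this comparison chose the members and is a description.

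Cd9 was read at 84.3 CPM in WT and 535 CPM in CCR2 KO at 24 h, and at 118 CPM in WT and 188 CPM in CCR2 KO at 72 h. The CCR2 KO library at 24 h was the highest, and the other 3 ranged from 84.3 to 188 CPM. The log2 ratio of CCR2 KO to WT was 2.67 (2.57 to 2.76) at 24 h and 0.67 (0.51 to 0.83) at 72 h.

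Cd81 was read at 48.7 CPM in WT and 380 CPM in CCR2 KO at 24 h, and at 329 CPM in WT and 527 CPM in CCR2 KO at 72 h. Here the WT library at 24 h stood apart as the low one. The log2 ratio of CCR2 KO to WT was 2.96 (2.84 to 3.08) at 24 h and 0.68 at 72 h.

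Cd63 was read at 433, 752, 506 and 359 CPM in library order. It was highest in CCR2 KO at 24 h and lowest in CCR2 KO at 72 h, with log2 ratios of CCR2 KO to WT of 0.80 (0.74 to 0.86) and -0.49 (-0.61 to -0.39). Cd53 followed the same order at 24 h, with 517, 813, 499 and 454 CPM in the 4 libraries. Its log2 ratios were 0.65 at 24 h and -0.14 at 72 h.

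Cd37, the B-cell member, was read at 49.9, 28.9, 81.2 and 41.4 CPM, so that at 24 h as at 72 h the CCR2 KO library was the lower one. Its log2 ratios were -0.79 and -0.97. Cd151 was read at 22.7, 24.8, 33.6 and 20.4 CPM, and Cd82 at 9.50, 11.3, 20.9 and 13.3 CPM. Both were highest in WT at 72 h.

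A gene entered a comparison when it reached 20 CPM in at least 1 of the 2 libraries, and it was counted when it differed by more than 2-fold. A gene under 20 CPM in 1 library could thus be counted only as higher in the other. The shares over all genes were taken under the same rule. In monocyte/Mφ-like cells at 24 h, 2 of the 6 members that entered (Cd9 and Cd81) were past 2-fold between genotypes, where 4.15% of all 5873 genes were, and nothing is read from that count because the rule used this contrast. Cd82 stayed under 20 CPM. Of the members past the 2-fold line Cd9 was the nearer to it, yet well past it at a log2 ratio of 2.67. The nearest short of the line were Cd63 at 0.80 and Cd37 at -0.79. At 72 h, 0 of 7 members were past 2-fold between genotypes, where 8.38% of 6411 genes were, and that count became 1 or 2 under 6 of the alternatives. The median log2 ratio of the members was 0.73 at 24 h and -0.49 at 72 h, beside medians of -0.07 and 0.13 over all genes.

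**Figure D2:**
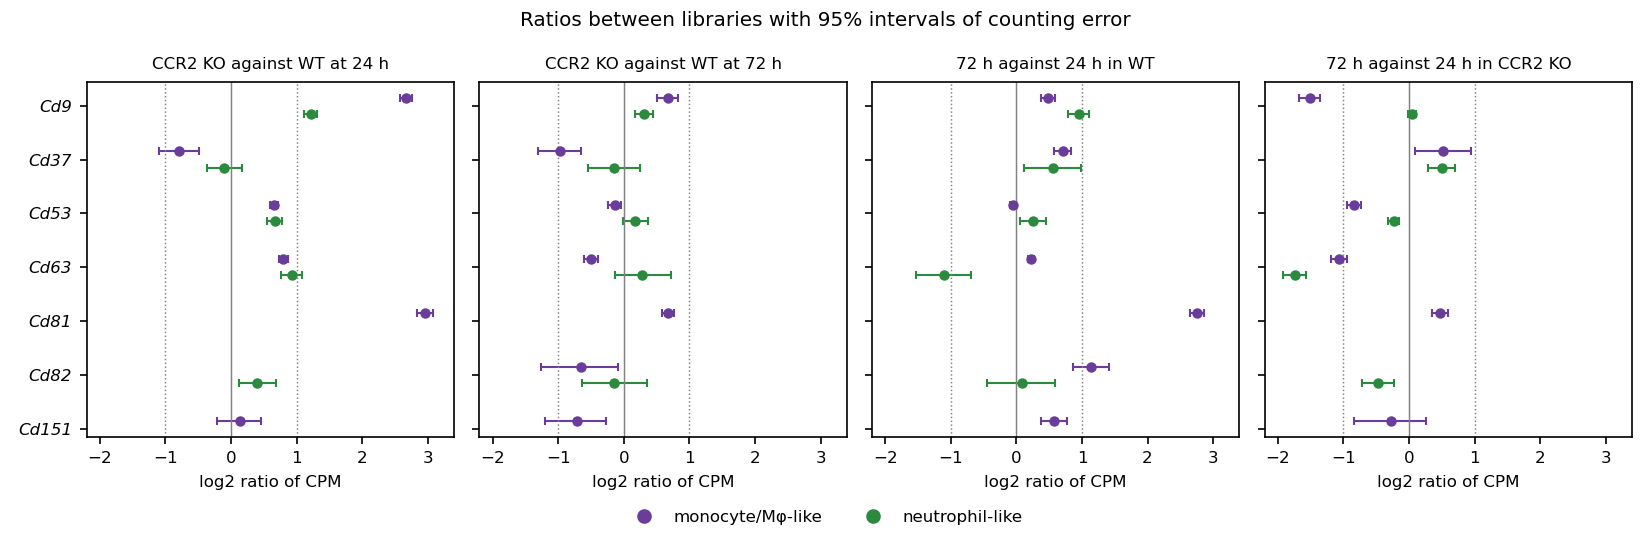
Log2 ratio of CPM for each tetraspanin between 2 libraries, in monocyte/Mφ-like (purple) and neutrophil-like cells (green), for each of the 4 comparisons, with 95% conditional intervals of counting error. Dotted lines mark 2-fold. Cd9 and Cd81 in monocyte/Mφ-like cells at 24 h (2.67 and 2.96) and Cd81 between 24 h and 72 h in WT (2.76) lay furthest to the right.

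The second question was how the levels moved from the acute to the resolution phase. In WT monocyte/Mφ-like cells Cd81 rose from 48.7 to 329 CPM, a log2 ratio of 2.76 (2.65 to 2.86), and Cd82 from 9.50 to 20.9 CPM, a log2 ratio of 1.14. These were 2 of 7 members past 2-fold, where 13.5% of 6195 genes were. In WT at 24 h Cd82 was below the level needed to enter, and it entered only through the 72 h library. It could therefore be counted only as higher, and nothing is read from its part in that count. Cd9 (log2 ratio 0.48), Cd37 (0.70), Cd151 (0.57) and Cd63 (0.23) were higher at 72 h by less than 2-fold, and Cd53 was at -0.05. In CCR2 KO the direction was different for several of them. Cd9 fell from 535 to 188 CPM, a log2 ratio of -1.51 (-1.67 to -1.35), and Cd63 from 752 to 359 CPM, a log2 ratio of -1.07 (-1.19 to -0.95), which made 2 of 6 members past 2-fold where 15.4% of 6435 genes were. Cd53 was at a log2 ratio of -0.84 and Cd81 at 0.47.

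Each library entered 2 of the 4 comparisons. The value of Cd81 in WT at 24 h therefore enters both its genotype ratio at 24 h and its time ratio in WT.

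The share of cells with a UMI was read in cells thinned to 1000 UMIs each. In library order 10, 5, 11 and 18 monocyte/Mφ-like cells were too shallow for this and were dropped. Cd9 was then seen in 6.83% of monocyte/Mφ-like cells in WT and 32.4% in CCR2 KO at 24 h, and in 8.63% and 18.3% at 72 h. The shares in full-depth cells, whose median depths were 14589, 15803, 13974 and 12695 UMIs, were 30.1%, 72.0%, 37.0% and 56.4%. T cell-like cells, taken as the background class for Cd9, had thinned shares of 3.23% to 6.52% at median depths of 6215 to 8713 UMIs, so the WT 24 h share lay close to background and the CCR2 KO shares above it.

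Cd81 was seen in 51 of 1274 thinned monocyte/Mφ-like cells in WT at 24 h, an exact binomial interval of 2.99% to 5.23%. The other 3 libraries had 22.1%, 21.6% and 31.3%. At full depth the WT cells had 19.6% at 24 h and 65.7% at 72 h, and the CCR2 KO cells had 98 of 218 cells and 62.4%. Neutrophil-like cells, taken as the background class for Cd81, had thinned shares of 0.957% to 2.35% at median depths of 2085 to 4844 UMIs. The WT library at 24 h was again the low one, and above the 1.44% of the neutrophil-like cells of the same library. A cell showed on average 0.84, 1.55, 1.15 and 1.21 of the 7 members after thinning, and cells with none made up 38.2%, 14.6%, 25.0% and 19.1%.

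Cd9 and Cd81 were unevenly spread over the cells. In WT at 24 h the tenth of monocyte/Mφ-like cells with the most UMIs of Cd81 held 85.4% of its UMIs, and for Cd9 that share was 76.0%. In CCR2 KO at 24 h these shares were 61.3% and 53.5%. The sub-clusters of the monocyte/Mφ-like cells showed which cells these were.

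Sub-clusters were again built without the tetraspanins and are called by their leading genes. Cd81 was highest, at 1234 CPM over all libraries, in a Cx3cr1 Mφ-like sub-cluster led by Mmp13, Ch25h and Lilra5. A sub-cluster of dividing cells led by Igkc, Igha and Pclaf followed with 747 CPM. The sub-clusters led by Ear2 and Mgl2 (354 CPM) and by Gal, Apoe and Fcrls (316 CPM, Cd206 Mφ-like) came next, and their intervals overlapped. An Arg1 Mφ-like sub-cluster led by Cxcl3 and Il1a had 11.3 CPM.

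Pooled over libraries, Cd9 was 892 CPM in a sub-cluster led by Fabp4, Inhba and Csf1 and 502 CPM in a shallow sub-cluster led by Cxcl13, Ctla2a and Prg4. That order depended on which libraries held the cells. The Fabp4-led cells came almost wholly from 24 h, with 643 CPM in WT and 958 CPM in CCR2 KO, while the Cxcl13-led cells had 164 CPM in WT at 24 h, 1643 CPM in WT at 72 h and 1014 CPM in CCR2 KO at 72 h. The Cx3cr1 Mφ-like sub-cluster had 186 CPM of Cd9 over all libraries, and that led by Fabp4 had 34.4 CPM of Cd81. Pooled Cd63 was 1029 CPM in the Fabp4-led and 841 CPM in the Cx3cr1 Mφ-like sub-cluster, where it was 1415 CPM in WT and 1054 CPM in CCR2 KO at 24 h but 273 CPM in WT at 72 h. It was also high in the Cd206 Mφ-like (735 CPM) and Fabp5 Mφ-like (695 CPM) sub-clusters. Ly6c monocyte-like cells, led by Cxcl9 and Cxcl10, had 146 CPM of Cd63, and a sub-cluster led by S100a8 and Lrg1 had 34.7 CPM. The S100a8-led cells had the higher mean score on the Ly6c monocyte markers (1.61 against 0.89). They were left unnamed because their leading genes held 2 markers of another class and 1 of their own. The name Ly6c monocyte-like therefore covers the Cxcl9-led cells only. Over all sub-clusters Cd63 ranged from 34.7 to 1029 CPM and Cd53 from 370 to 1033 CPM.

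The makeup of the class differed between libraries. In CCR2 KO at 24 h the Cx3cr1 Mφ-like sub-cluster made up 22.0% of the monocyte/Mφ-like cells and held 74.9% of the Cd81 UMIs. In WT at 24 h it made up 1.95% of the cells and held 32.0%. The Fabp4-led sub-cluster made up 31.2% of the cells in CCR2 KO at 24 h with 64.8% of the Cd9 UMIs, against 1.56% of the cells in WT with 12.9%.

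**Figure D3:**
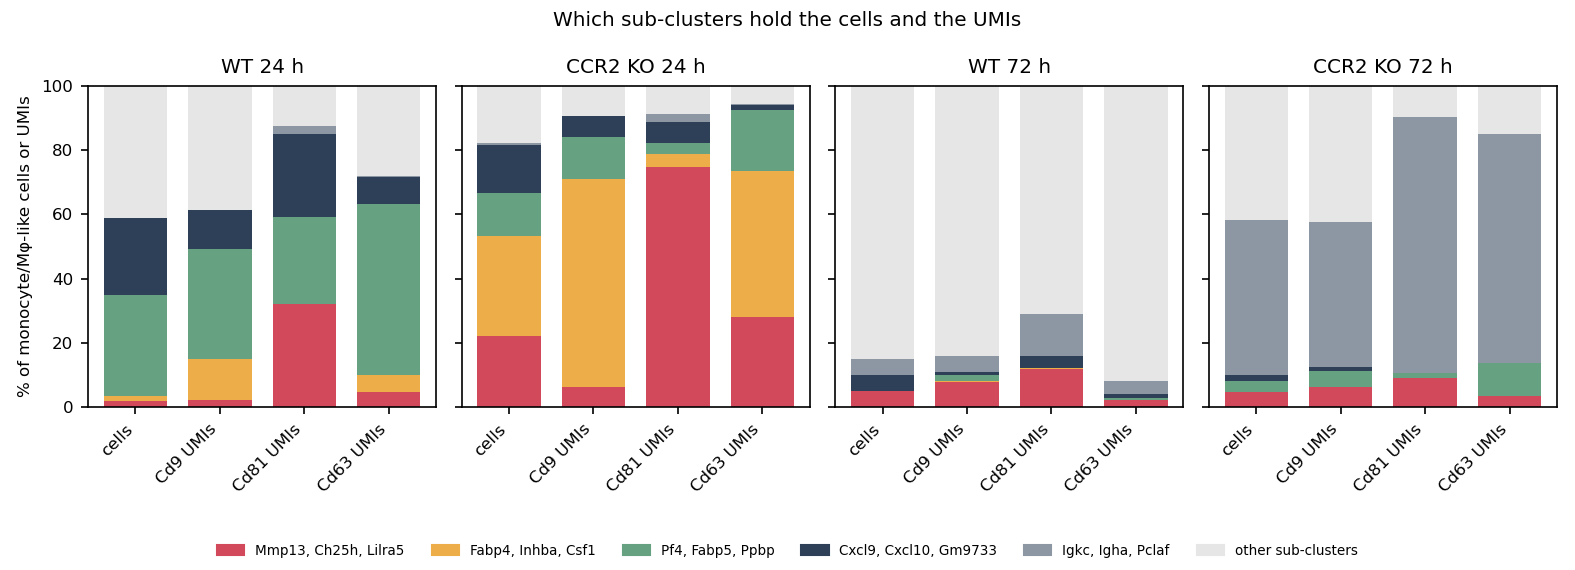
Share of monocyte/Mφ-like cells, and of the UMIs of Cd9, Cd81 and Cd63, held by each sub-cluster in the 4 libraries, in percent; sub-clusters are called by their leading genes. In CCR2 KO at 24 h the red sub-cluster had 22.0% of the cells and 74.9% of the Cd81 UMIs, and the yellow one 31.2% of the cells and 64.8% of the Cd9 UMIs.

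Ratios within a sub-cluster differed from those of the whole class. Within Fabp5 Mφ-like cells at 24 h, Cd9 was 84.1 CPM in 401 WT cells and 460 CPM in 29 CCR2 KO cells, a log2 ratio of 2.45 (2.23 to 2.67). Within Ly6c monocyte-like cells it was 46.8 CPM in 308 cells and 216 CPM in 33 cells, a log2 ratio of 2.20 (1.87 to 2.53). Both sub-clusters thus kept most of the difference in Cd9. The Fabp4-led cells, which were left unnamed, had a higher mean score on the Fabp5 markers than the Fabp5 Mφ-like cells (2.03 and 1.39). Within the Fabp4-led cells the ratio was smaller, at 643 and 958 CPM or 0.57 (0.36 to 0.79) on the log2 scale, and within Cx3cr1 Mφ-like cells the interval included 0, at 0.47 (-0.09 to 1.08).

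For Cd81 the ratios within the 4 sub-clusters with at least 20 cells in both libraries were all below that of the whole class. They were 1.08 in Fabp5 Mφ-like cells (38.3 and 80.9 CPM), 1.40 in Ly6c monocyte-like cells (57.9 and 152 CPM) and 0.39 (0.20 to 0.58) in Cx3cr1 Mφ-like cells (1088 and 1421 CPM). In the Fabp4-led cells Cd81 rested on 2 UMIs in WT and 54 in CCR2 KO, a log2 ratio of 2.75 with an interval from 0.83 to 5.83. For Cd63 the sub-clusters went both ways, with log2 ratios of 0.49 in Fabp5 Mφ-like, -1.21 in Ly6c monocyte-like, -0.43 in Cx3cr1 Mφ-like and -0.55 in Fabp4-led cells.

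**Figure D4:**
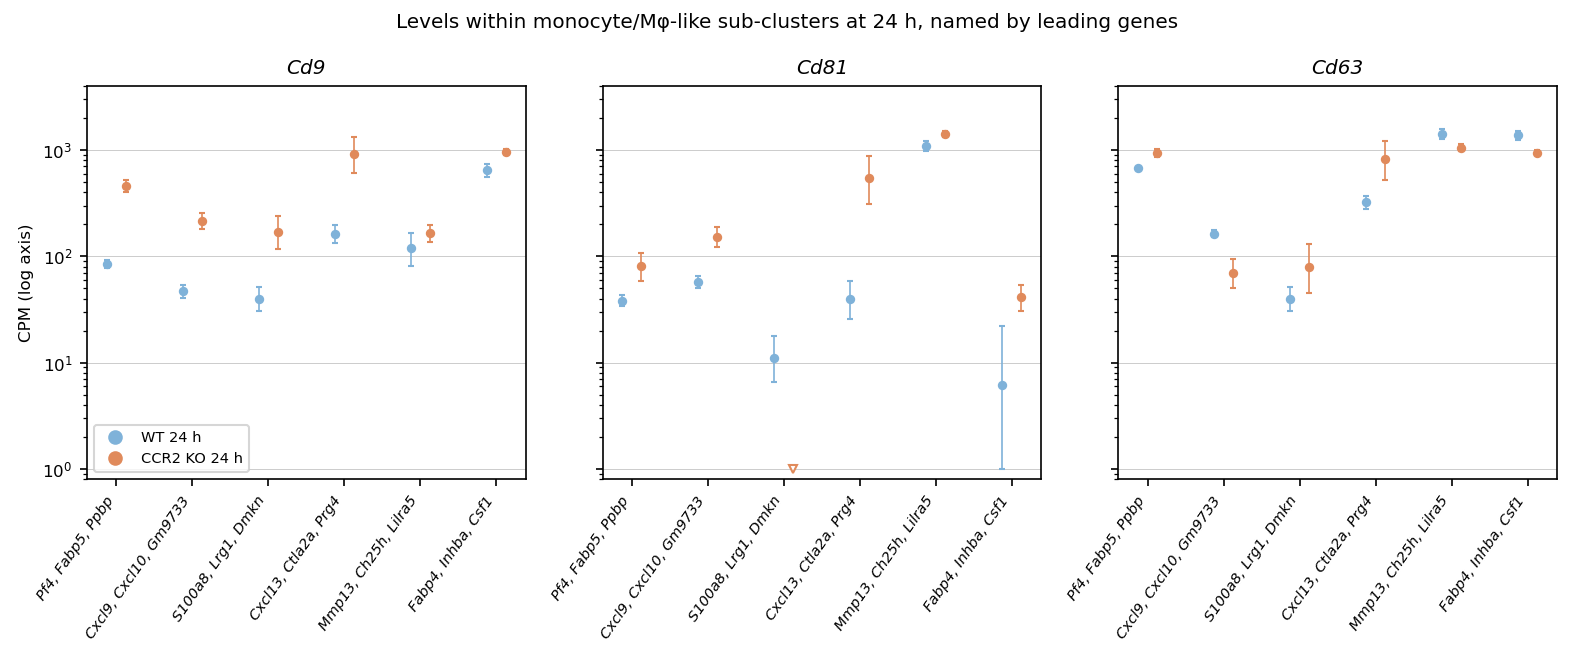
Level of Cd9, Cd81 and Cd63 in CPM (log axis) in monocyte/Mφ-like sub-clusters of the WT (blue) and CCR2 KO (orange) libraries at 24 h, with exact 95% Poisson intervals; the triangle marks 0 UMIs, and some CCR2 KO points rest on fewer than 20 cells. Cd9 was higher in CCR2 KO in the Fabp5 Mφ-like sub-cluster (84.1 and 460 CPM), whereas Cd81 in the Cx3cr1 Mφ-like sub-cluster was 1088 and 1421 CPM.

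When the CCR2 KO levels at 24 h were weighted to the sub-cluster makeup of the WT library, the log2 ratio was 2.51 for Cd9, 1.20 for Cd81 and 0.15 for Cd63, beside 2.67, 2.96 and 0.80 unweighted. Some weights rested on few cells, since the Arg1 Mφ-like sub-cluster had 327 WT but only 6 CCR2 KO cells. Without the Cx3cr1 Mφ-like sub-cluster the ratio of Cd81 was 1.82 (1.63 to 2.02), and without the Fabp4-led sub-cluster that of Cd9 was 1.98 (1.85 to 2.12).

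At 72 h the dividing sub-cluster made up 48.3% of the monocyte/Mφ-like cells of CCR2 KO and held 79.6% of their Cd81 UMIs. It was led by immunoglobulin genes beside a cell-cycle gene, and the 5 plasma cell markers summed to 1374 CPM in the monocyte/Mφ-like cells of that library against 295 to 359 CPM in the other 3, with all 5 detected. The summed level of 8 genes of dividing cells was 1249 CPM there and 30.8 to 171 CPM elsewhere. The part of either in the tetraspanin values was not tested. Without that sub-cluster the log2 ratio of CCR2 KO to WT at 72 h was -0.05 (-0.25 to 0.14) for Cd81, 1.23 for Cd9 and -0.88 for Cd63, and from 24 h to 72 h in CCR2 KO it was -0.95 for Cd9, -1.44 for Cd63 and -0.36 for Cd81, which turned its sign. In WT at 72 h the Cd206 Mφ-like sub-cluster held 45.8% of the cells and 64.3% of the Cd63 UMIs, and the genotype ratio of Cd63 without it was 0.16 in place of -0.49. The signs of the 72 h ratios of Cd81 and Cd63 thus depended on which sub-clusters were counted.

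The Cx3cr1 Mφ-like cells could also be read over time in WT, with 25 and 43 cells. Their Cd81 was 1088 CPM at 24 h and 1030 CPM at 72 h, a log2 ratio of -0.08 (-0.29 to 0.13). Their Cd63 fell from 1415 to 273 CPM, a log2 ratio of -2.38. In Ly6c monocyte-like cells of WT, Cd81 rose from 57.9 to 251 CPM, a log2 ratio of 2.12 (1.82 to 2.41). In the S100a8-led cells of WT it was 11.2 CPM at 24 h and 25.8 CPM at 72 h. There the log2 ratio was 1.21, with an interval that included 0 (-0.03 to 2.39).

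Neutrophil-like cells outnumbered monocyte/Mφ-like cells in CCR2 KO and had the most Cd9, so the levels of neutrophil genes were read in other cells. In CCR2 KO at 24 h, S100a9, an abundant neutrophil gene, was 39.6 CPM in monocyte/Mφ-like cells and 32868 CPM in neutrophil-like cells, a share of 0.121%. The same share of neutrophil Cd9 comes to 3.09 CPM, against the 535 CPM measured. With S100a8 in its place it comes to 4.09 CPM there, and to 11.3 CPM against 84.3 CPM in WT at 24 h. In NK cell-like cells of CCR2 KO at 24 h it comes to 26.1 CPM with S100a9 and 44.4 CPM with S100a8, against 298 CPM. Whether these neutrophil transcripts were free RNA, the cells' own or from mixed cells was not tested. The 10 neutrophil markers together were 256.5 CPM in these cells and 791 CPM in the WT library at 24 h, where none was at 0 in either. Summed genes of the response to dissociation were 4118, 4509, 5264 and 2090 CPM in the 4 libraries, and the median share of mitochondrial UMIs was 3.98%, 3.54%, 4.31% and 5.83%. The part of dissociation and of library depth in the ratios was not tested.

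Neutrophil-like cells were not the cells that chose the members, but they came from the same libraries. Cd9 was read at 1105 CPM in WT and 2561 CPM in CCR2 KO at 24 h, and at 2133 and 2648 CPM at 72 h. The WT library at 24 h was the low one, as for Cd81 in monocyte/Mφ-like cells. The log2 ratio of CCR2 KO to WT was 1.21 (1.11 to 1.32) at 24 h and 0.31 at 72 h. After thinning, 53.2%, 78.6%, 62.4% and 76.6% of neutrophil-like cells had a UMI of Cd9.

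Cd63, which lies in neutrophil granules, was read at 475 CPM in WT and 901 CPM in CCR2 KO at 24 h, and at 222 and 270 CPM at 72 h. Both 24 h libraries lay above both 72 h libraries. In WT its log2 ratio from 24 h to 72 h was -1.10 (-1.54 to -0.68), and CCR2 KO had -1.74 (-1.92 to -1.57). Between genotypes it was 0.92 at 24 h and 0.28 at 72 h. Cd53 was read at 986, 1562, 1173 and 1328 CPM in library order, and the 24 h genotype ratio was 0.66 on the log2 scale.

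Cd37 (187, 174, 274 and 247 CPM) was higher at 72 h in both genotypes, and Cd82 (168, 221, 177 and 160 CPM) varied by less than 1.5-fold. Cd81 and Cd151 stayed below 20 CPM in every library of neutrophil-like cells. Of the 5 members that entered, 1 was past 2-fold between genotypes at 24 h (Cd9, where 8.84% of 4333 genes were) and 0 at 72 h (where 13% were). Between times 1 of 5 was past 2-fold in WT and 1 of 5 in CCR2 KO, in both cases Cd63, where 20.4% and 12.2% of genes were. A single member of 5 is too little to read against these backgrounds. The 7 members summed to 2948, 5444, 4004 and 4679 CPM, and Cd9 made up 37.5%, 47.0%, 53.3% and 56.6% of that sum.

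**Figure D5:**
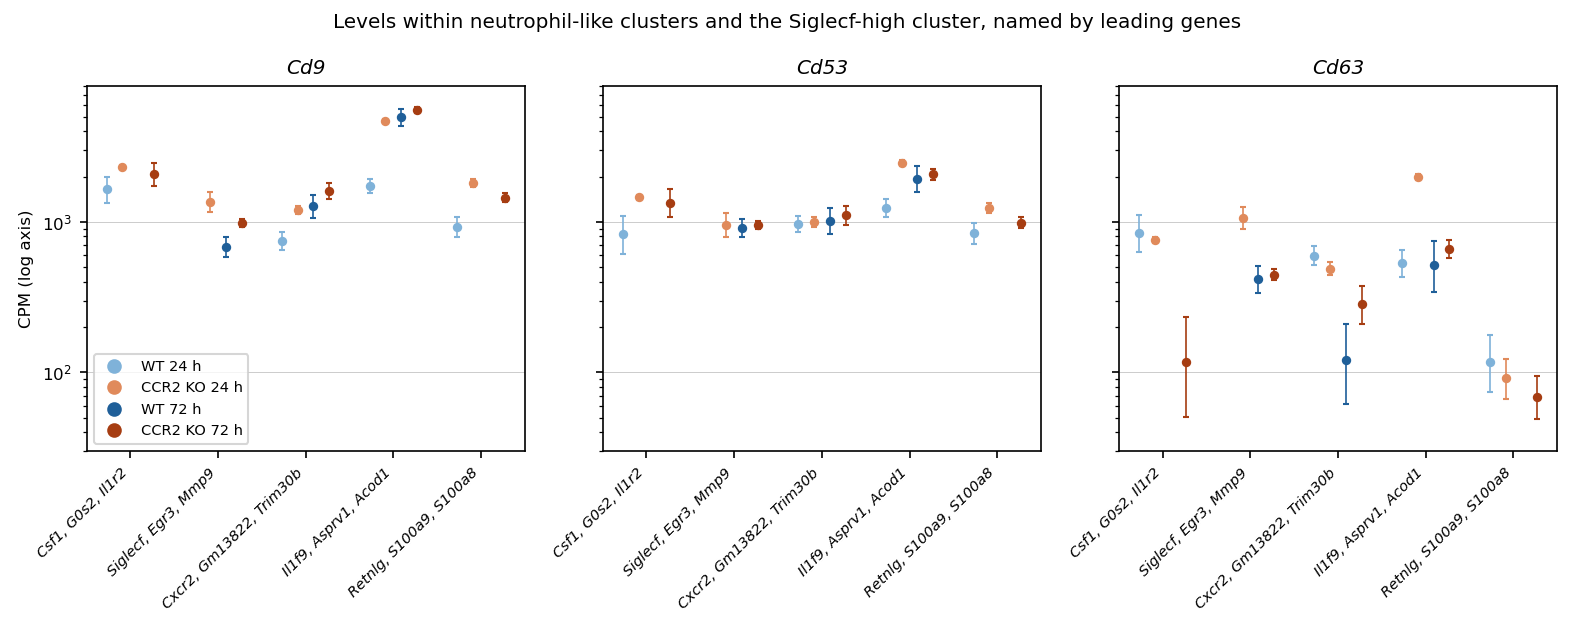
Level of Cd9, Cd53 and Cd63 in CPM (log axis) in the neutrophil-like clusters and the Siglecf-high cluster, called by their leading genes, with points for libraries of at least 20 cells and bars for exact 95% Poisson intervals. Cd9 was lowest in WT at 24 h in each of the 4 neutrophil-like clusters, and in the Il1f9-led cluster Cd9 rose from 1735 CPM there to 4671 to 5556 CPM in the other libraries.

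The neutrophil-like cells fell into 4 clusters readable at 24 h, and the largest in CCR2 KO, led by Csf1, G0s2 and Il1r2, drew 621 of its 683 cells from that library. Cd9 was nevertheless higher in CCR2 KO than in WT within each of the 4. The log2 ratios were 1.43 (1.26 to 1.60) in the cluster led by Il1f9, Asprv1 and Acod1, 0.97 in that led by Retnlg, 0.68 in that led by Cxcr2 and 0.49 (0.20 to 0.79) in that led by Csf1. The Il1f9-led cluster had the highest levels, with Cd9 at 1735, 4671, 4955 and 5556 CPM in library order.

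Cd63 did not share this pattern. In the Il1f9-led cluster it was 535 CPM in WT and 1997 CPM in CCR2 KO at 24 h, a log2 ratio of 1.90 (1.60 to 2.22). In the Csf1-led cluster it was 847 and 758 CPM, in the Cxcr2-led cluster 597 and 489 CPM, and in the Retnlg-led cluster 118 and 91.2 CPM. The higher Cd63 of CCR2 KO neutrophil-like cells was therefore found in 1 of 4 clusters. From 24 h to 72 h in CCR2 KO it fell in the Csf1-led cluster from 758 to 118 CPM, the latter from 8 UMIs in 20 cells. In the Il1f9-led cluster of CCR2 KO it fell from 1997 to 662 CPM. The Cxcr2-led cluster fell in both genotypes, from 489 to 284 CPM in CCR2 KO and from 597 to 120 CPM in WT. That WT value at 72 h rested on 12 UMIs. In the Retnlg-led cluster of CCR2 KO the log2 ratio was -0.40 (-1.07 to 0.25). In the Il1f9-led cluster of WT mice Cd63 was 535 CPM at 24 h and 517 CPM in 20 cells at 72 h.

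Siglecf-high granulocytes could be read in every library but WT at 24 h. Cd63 was 1069 CPM in CCR2 KO at 24 h, 416 CPM in WT at 72 h and 445 CPM in CCR2 KO at 72 h, and Cd9 was 1360, 684 and 985 CPM. The 24 h library was high for both, and the log2 ratio of Cd63 over time in CCR2 KO was -1.26 (-1.54 to -0.98). Cd53 was flat at 959, 918 and 949 CPM. Cd81, at 102, 164 and 188 CPM, lay above the 12.1 to 18.2 CPM of neutrophil-like cells in every library.

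In DC-like cells the calls rested on few cells. Cd63 was read at 9.03, 136, 65.6 and 58.7 CPM in library order. The 136 CPM came from 184 UMIs in 11 of 62 cells, of which 85 UMIs were in 1 cell, and 5 cells held 90.2%. In CCR2 KO at 72 h, 1 cell held 95 of 220 UMIs. Cd81 was read at 1.13, 19.2, 84.5 and 36.3 CPM. At 24 h it rested on 1 UMI in WT and on 26 UMIs in 2 cells of CCR2 KO, and in WT at 72 h on 228 UMIs in 42 of 140 cells.

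Between genotypes, 2 of 5 members were past 2-fold in DC-like cells at 24 h (Cd63 and Cd82, where 6.81% of 6090 genes were) and 1 of 6 at 72 h (Cd81, lower in CCR2 KO, where 4.4% of 6248 genes were). In that 24 h comparison Cd63 was under 20 CPM in WT and entered only through CCR2 KO. Between times, 3 of 6 were past 2-fold in WT (Cd37, Cd63 and Cd81, all higher at 72 h), where 8.41% of genes were. All 3 were under 20 CPM in WT at 24 h and entered only through the 72 h library. They could therefore be counted only as higher, and nothing is read from their number or shared direction. In CCR2 KO, 2 of 6 were past 2-fold over time (Cd37 higher and Cd63 lower), where 7.13% of genes were. The ratio of Cd81 over time in WT, with its single UMI at 24 h, was 6.23 on the log2 scale with an interval from 3.73 to 11.5. Cd37 was 15.8 CPM at 24 h, from 14 UMIs, and 50.4 CPM at 72 h in WT mice, and 22.1 CPM and 60.8 CPM in CCR2 KO. The WT log2 ratio of 1.67 turned to -0.085 in thinned cells and to -0.20 when libraries were clustered separately. The makeup of the class moved with time as well. The Xcr1-led cluster held 12.7%, 8.06%, 39.3% and 46.2% of DC-like cells in library order, and in WT at 72 h it held 75.4% of the Cd81 UMIs. Over time in WT, 7 of 8 genes of dividing cells and 5 of 9 dissociation stress genes were past 2-fold higher. The part of these shifts in the members' ratios was not tested. In the Xcr1-led DC cluster at 72 h, Cd81 was 121 CPM in WT and lower in CCR2 KO, at a log2 ratio of -1.01 (-1.36 to -0.67). Cd9 (112, 133, 212 and 189 CPM) and Cd53 (515, 489, 403 and 370 CPM) moved by less than 2-fold in DC-like cells.

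Other genes of the family and their partners were read in the monocyte/Mφ-like cells from lists. Of 20 other tetraspanins, 17 were in the files and 6 entered the comparisons, and 0 of the 6 were past 2-fold between genotypes at 24 h or at 72 h, where 4.15% and 8.38% of all genes were. Tspan13 came closest, with log2 ratios of 0.95 at 24 h and 0.98 at 72 h, and Tspan3 had the lowest at 24 h, -0.34. Over time 1 of the 6 was past 2-fold in WT and 2 of the 6 in CCR2 KO, all higher at 72 h. Of all genes 13.5% and 15.4% were past 2-fold. Tspan32 was past it in both genotypes, at log2 ratios of 1.49 in WT and 1.43 in CCR2 KO. Tspan14 was past it in CCR2 KO at 1.03 (0.74 to 1.32), beside 0.76 in WT.

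Of the 17 membrane partners that entered at 24 h, 4 were past 2-fold higher and 2 lower in CCR2 KO, beside 4.15% of all genes either way. Hbegf, a growth factor precursor that binds Cd9, was 6.04 CPM in WT and 42.7 CPM in CCR2 KO, a log2 ratio of 2.82. Itgax, an integrin subunit, was 26.5 and 135 CPM, a log2 ratio of 2.34. Timp1, a secreted protease inhibitor that binds Cd63, was 56.9 and 20.4 CPM, a log2 ratio of -1.48, and Itgb7, an integrin subunit, was at -1.07. At 72 h, 2 of 17 partners were past 2-fold, beside 8.38% of all genes: Vcam1 at 1.82 and Cd4 at 2.45, both higher in CCR2 KO. Cd4 is itself among the 8 T cell markers. In these cells at 72 h the markers summed to 24.9 CPM in WT and 89.8 CPM in CCR2 KO. Of these sums Cd4 alone gave 10.4 and 57.0 CPM, so they are no separate reading beside its ratio. The part of T cell transcripts was not tested.

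Of 12 vesicle and late endosome genes that entered, 0 were past 2-fold between genotypes at either time or between times in either genotype, where 4.15% to 15.4% of all genes were. Sdcbp, an adaptor that loads Cd63 into vesicles, was 1054 and 1250 CPM at 24 h. At 24 h the furthest were Rab7 (log2 ratio 0.26) and Anxa2 (-0.54). The median log2 ratios of the lists at 24 h were 0.06 for the other tetraspanins, 0.13 for the partners and 0.02 for the vesicle genes, beside -0.07 over all genes.

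Across 22 sums of a class in a library, the genes whose log2(CPM + 10) followed each member most closely were named from 9533 genes by Pearson's r. The sums share libraries and depth, and r is given as a description. Nearest to Cd9 were Ptpn12 (0.94), Ostf1 (0.94) and Apobr (0.93). Nearest to Cd63 were Mitf (0.92), Sdcbp (0.92) and Arl11 (0.91), and nearest to Cd53 were Mxd1, Sertad1 and Srgn (0.93 each). Cd82 was nearest to Dennd1c (0.96), Sh2d3c (0.92) and Nsd3 (0.92), and Cd37 to Prkd2 (0.89) and Paip2 (0.88). Cd81, with Pikfyve (0.81), Lmbrd2 (0.77) and Trp53rkb (0.76), and Cd151, with Abcd4 (0.74), Lmna (0.72) and Selenbp1 (0.70), had no gene as close. Among the members themselves the closest pairs were Cd9 with Cd53 (0.84) and Cd37 with Cd82 (0.68), and Cd81 ran most against Cd82 (-0.48).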

How the data were processed

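CD45+ cells of the small intestinal muscularis were profiled with the 10x 3' kit, and per the labels the authors aligned reads to GRCm38/mm10 and counted UMIs with Cell Ranger 3.0.2. The deposited values are raw UMI counts per gene and cell in 4 tables, 1 per library. The tables already met limits of at least 200 genes and under 10% mitochondrial UMIs per cell, and 12 non-immune cells (6 from each CCR2 KO library) were removed, which left 5799 of 5811.

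Counts were scaled to 10000 per cell, logged and clustered on 2000 variable genes (30 components, 20 neighbours, Leiden resolution 1) with scanpy 1.11.5 and leidenalg 0.10.2 in Python 3.11.15. The tetraspanins, Ccr2 and subset markers were held out when classes were clustered. For the monocyte/Mφ-like sub-clusters only the tetraspanins and Ccr2 were held out, so genes that name a sub-cluster could enter its clustering. Clusters were named from marker lists. Joining the B cell and plasma cell lists and keeping the Siglecf-high cluster apart were chosen after the data were seen. Scrublet marked 9 cells (0.155%), too few to have worked, so doublets were not removed. The same 2 clusters held most monocyte/Mφ-like cells of both 24 h libraries, and other clusters, which differed between genotypes, held most at 72 h.

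UMIs were summed per class and library as CPM with exact Poisson intervals. Ratios have exact conditional intervals and shares exact binomial ones, all at 95% (scipy 1.17.1). A class needed 20 cells and a gene 20 CPM. No test was made, as each group was 1 library. Alternatives used edgeR 4.0.16 for TMM scaling only. The ratios and their intervals were tested on simulated counts that held counting error only. Clustering, naming, thinning and weighting were not tested in this way.

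The members and lists were chosen with earlier results of these data known. Text names the 7 members, the 3 genes nearest to each (1 is not reported here), and list genes by counts past 2-fold with the furthest genes each way. Sequences are RefSeq start windows on GRCm38.p6.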

Additional observations from a re-analysis of the deposited data

Results flagged for a closer look

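For 6 values the effect of genotype or time had opposite signs in the 2 settings compared, with counting intervals on either side of 0 and at least 20 CPM in 1 library of each ratio. Other values also had opposite signs without meeting this. None of these differences was tested, since each group was 1 library. In monocyte/Mφ-like cells the log2 ratio of CCR2 KO to WT for Cd63 was 0.80 at 24 h and -0.49 at 72 h, a difference of -1.29, and for Cd53 it was 0.65 and -0.14, a difference of -0.79. The -0.14 ranged from -0.32 to 0.38 over the alternatives, so its sign turned. In the same cells the log2 ratio of 72 h to 24 h for Cd9 was 0.48 in WT and -1.51 in CCR2 KO, a difference of -1.99, and for Cd63 it was 0.23 and -1.07, again a difference of -1.29. In neutrophil-like cells the log2 ratio of 72 h to 24 h for Cd53 was 0.25 in WT and -0.23 in CCR2 KO, a difference of -0.49. In DC-like cells the log2 ratio of 72 h to 24 h for Cd63 was 2.86 in WT and -1.21 in CCR2 KO, a difference of -4.07, with 90.2% of the CCR2 KO 24 h UMIs in 5 cells. The -1.21 ranged from -1.55 to 1.06 over the alternatives.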

How the results depend on the processing

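No paired analysis was possible because each group was 1 library and the labels give no replicate numbers that pair libraries, and for the same reason no library could be left out. The count of members past 2-fold in monocyte/Mφ-like cells between genotypes at 24 h was 2 under each alternative run. Between genotypes at 72 h it was 0, and became 1 with TMM scaling, 2 with the mean of single-cell CPM, 2 with thinned cells, 1 with cells of at most 5% mitochondrial UMIs and 1 with each library clustered on its own. From 24 h to 72 h it was 2 in WT and became 1 with TMM scaling, and in CCR2 KO it was 2 and became 1 with the mean of single-cell CPM and 1 with cells gated on markers. Added after seeing the data, leaving out the dividing sub-cluster gave 1 at 72 h and 1 over time in CCR2 KO, and removing the top 5% of Scrublet scores gave 1 over time in CCR2 KO. The log2 ratio at 24 h ranged from 2.42 to 3.42 for Cd9 and from 2.83 to 3.32 for Cd81 over the alternatives, and that of Cd81 at 72 h from -0.12 to 0.77. Cd9 in neutrophil-like cells at 24 h ranged from 1.17 to 1.41. Past 2-fold ratios changed sign in DC-like cells only. Thinned cells gave -0.15 for Cd63 and -0.15 for Cd82 between genotypes at 24 h, 0.085 for Cd81 at 72 h, and over time -0.085 for Cd37 in WT and 1.06 for Cd63 in CCR2 KO. Each library clustered on its own gave -0.20 for Cd37 over time in WT, and cells of at most 5% mitochondrial UMIs gave 0.093 for Cd63 over time in CCR2 KO. The cause of these changes was not tested. Of 664 log2 ratios recomputed, 516 stayed within counting error, 141 moved and 7 that were past 2-fold turned sign. Some under 2-fold also crossed 0, among them in monocyte/Mφ-like cells Cd53 between genotypes at 72 h (-0.32 to 0.38) and Cd37 over time in CCR2 KO (-0.88 to 0.79). Low depth in neutrophil-like cells (median 2085 to 4844 UMIs per cell) and few cells in the lymphoid classes limit what could be read.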
